A study of Mus musculus with 16 samples.

Results

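The 8 genes Sox10, Foxd3, Erbb3, Fabp7, S100b, Gfap, Cdh19 and Mbp, which mark satellite glia and Schwann cells, were taken by symbol from the tables of 24411 genes and followed through all 16 RNA-Seq libraries. All 8 were in both tables and passed the filter on low counts. The libraries fall into 5 groups. Transgene-free mice gave 4 celiac ganglia with wild-type Runx1t1 and 3 ganglia labelled Runx1t1 het. Mice homozygous for the Th-MYCN transgene gave 3 celiac ganglia with wild-type Runx1t1, 2 ganglia labelled Runx1t1 het, and 4 tumors with wild-type Runx1t1. The ganglia came from 2-week-old mice of both sexes, and the labels give no age for the tumors. The Th-MYCN line carries human MYCN behind the tyrosine hydroxylase promoter, so the transgene is driven in Th-expressing neural crest cells, and the het label stands for 1 allele of Runx1t1 inactivated by insertion. The labels do not say that libraries of a group came from separate animals, so the p-values below measure only the spread between these libraries.

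Peripheral glia arise from the neural crest. In a sympathetic ganglion, satellite glia wrap the cell bodies of the neurons, and Schwann cells line the axons that enter and leave. SOX10 is the transcription factor that both cell types need, neuregulin from axons reaches them through the receptor ERBB3 with its partner ERBB2, and Schwann cells that wrap axons make myelin proteins such as MBP. In bulk RNA, fewer glial cells and less RNA per glial cell cannot be told apart, and this holds for every value below.

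Facts of the libraries that touch these genes come first. Counts per library ran from 10692299 to 38618757, and 6 of the 12 ganglia but no tumor had fewer than 20000000. These 6 were the ganglia numbered 1 or 2, so depth followed replicate number among ganglia. Both Th-MYCN ganglia labelled het were among them, and of the Th-MYCN wild-type ganglia only replicate 1 was. Depth thus followed group in tumors against Th-MYCN ganglia labelled het, and was uneven by Runx1t1 label among Th-MYCN ganglia. A count of 0 allows up to 3 counts, or 0.0777 to 0.281 CPM of the total counts before TMM scaling, which covers counting error only. Runx1t1 itself, the targeted gene, stood at 2.78 to 6.28 TPM in the 7 transgene-free ganglia and did not separate ganglia labelled het from wild-type ones (log2 fold change 0.41 ± 0.52 SE, edgeR adjusted p = 0.993). In Th-MYCN ganglia it was 70.3, 7.9 and 37.4 TPM with wild-type Runx1t1 and 8.83 and 16.9 TPM under the het label (log2 fold change -1.74 ± 0.66 SE, edgeR adjusted p = 0.35). The RNA thus did not check the labels, and these groups are called by their label. The Y-linked gene Ddx3y, from which the term for sex below was set, was uneven over the groups. Tumors gave 41.5, 52.1, 44.2 and 0 CPM. Transgene-free wild-type ganglion 2, transgene-free ganglion 4 labelled het and Th-MYCN wild-type ganglion 4 gave 66.9, 56.4 and 51.8 CPM. The other ganglia, among them both Th-MYCN ganglia labelled het, gave at most 0.32 CPM. The 12 ganglia held the sympathetic neuron gene Th at 391 to 2033 TPM. One transgene-free wild-type ganglion (replicate 2) carried lymphocyte markers at a summed 509.8 TPM, against at most 5.28 TPM in any other ganglion. One tumor (replicate 3) carried liver markers at a summed 6906 TPM, against at most 75.1 TPM in the other tumors. One Th-MYCN wild-type ganglion (replicate 1) held proliferation genes at a summed 1184 TPM, against 1424 to 1720.3 TPM in the tumors and at most 634 TPM in the other ganglia.

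Promoter sequence was at hand for 4 of the 8 genes, as RefSeq windows on GRCm38.p6 from 250 bases before to 50 bases after the annotated start. The windows of Fabp7, S100b and Foxd3 are shown because these 3 genes fell together in tumors. Capitals mark every match, on either strand, to ACAAT or ACAAAG (letters that SOX proteins are known to bind), CACGTG (the E-box that MYC proteins are known to bind) or TATAAA. The motifs were picked after the sequences were seen.
Fabp7 promoter: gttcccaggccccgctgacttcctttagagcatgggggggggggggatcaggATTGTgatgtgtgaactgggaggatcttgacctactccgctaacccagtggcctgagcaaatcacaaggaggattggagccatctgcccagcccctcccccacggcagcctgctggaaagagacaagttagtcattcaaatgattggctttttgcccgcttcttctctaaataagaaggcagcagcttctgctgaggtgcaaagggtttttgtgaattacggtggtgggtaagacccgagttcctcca
S100b promoter: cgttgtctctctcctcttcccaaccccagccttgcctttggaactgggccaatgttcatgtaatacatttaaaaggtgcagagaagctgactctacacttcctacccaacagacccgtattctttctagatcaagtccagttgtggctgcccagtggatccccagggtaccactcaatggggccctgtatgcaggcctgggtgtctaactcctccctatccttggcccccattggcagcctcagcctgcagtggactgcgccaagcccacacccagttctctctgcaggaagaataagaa
Foxd3 promoter: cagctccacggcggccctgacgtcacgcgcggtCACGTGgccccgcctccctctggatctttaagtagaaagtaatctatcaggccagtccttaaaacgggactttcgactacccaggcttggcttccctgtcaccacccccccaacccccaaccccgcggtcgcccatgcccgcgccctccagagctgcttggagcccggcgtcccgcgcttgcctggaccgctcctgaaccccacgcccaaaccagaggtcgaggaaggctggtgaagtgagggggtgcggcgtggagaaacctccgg
The Fabp7 window lies at chr10:57784673-57784972 on the plus strand and holds 1 ACAAT on the opposite strand, at position -198 from the start. The S100b window lies at chr10:76253586-76253885 on the plus strand and holds none of the 4 motifs. The Foxd3 window lies at chr4:99656049-99656348 on the plus strand and holds 1 CACGTG, at position -217. Of 32851 mouse promoter windows of the same length, 31% held ACAAT (10192 windows), 18.7% ACAAAG, 7.15% CACGTG and 13.6% TATAAA. These matches are letters in a window and were not tied to binding in these samples.

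Tumors held less RNA of 7 of the 8 genes than ganglia of any genotype, by 9.52-fold to 122-fold for 6 of them and by 2.43-fold to 3.13-fold for Mbp. Against all transgene-free ganglia, Fabp7, Cdh19, Sox10, S100b, Foxd3, Erbb3 and Mbp were lower at an edgeR adjusted p under 0.05, and so they were against Th-MYCN ganglia with wild-type Runx1t1 and against Th-MYCN ganglia labelled het. Gfap was not called in any of these 3 comparisons. Tumors differed from ganglia in many genes: of 16665 genes tested, 20.5% were called lower than in Th-MYCN wild-type ganglia, 23.5% lower than in Th-MYCN ganglia labelled het, and 30.9% lower than in all transgene-free ganglia, where 30.6% were called higher. The members' median log2 fold change was -4.63, -4.82 and -5.07 in that order, beside medians of -0.01, 0.07 and -0.06 over all genes tested. All 3 comparisons share the tumors. How many of all genes stood lower in every tumor than in every ganglion was not counted. The gaps given gene by gene below are therefore descriptions. Leaving out both the ganglion with lymphocyte RNA and the tumor with liver RNA, a choice made after seeing the data, left 7 of 8 genes called lower in each comparison, with medians of -4.56, -4.65 and -4.88. The share of all genes called in that fit is not given. Counts from that fit, here and for the lists below, stand beside shares from the fit with all libraries.

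**Figure D1:**
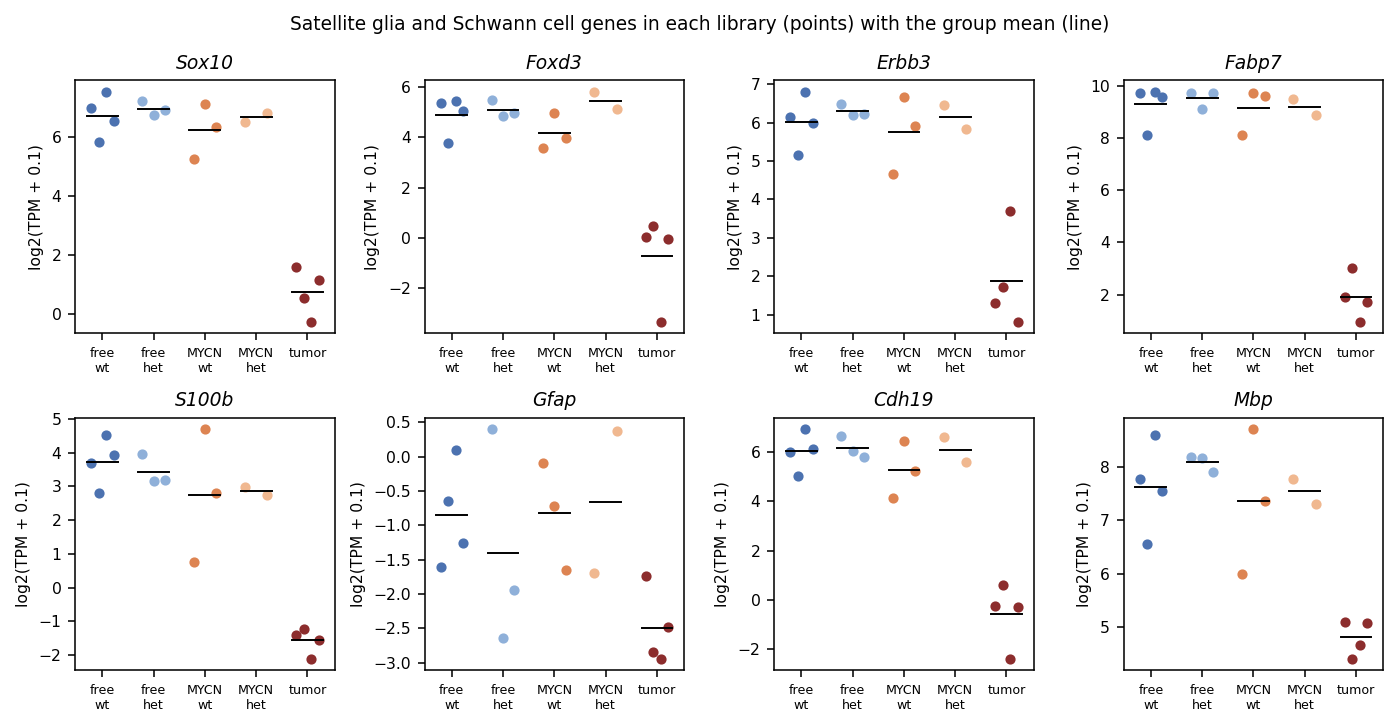
Each panel plots log2(TPM + 0.1) of 1 gene in every library (points) by group, with the mean of the plotted values as a line, where free means transgene-free. The 4 tumors lie below all 12 ganglia for each gene but Gfap, and the single tumor point at the bottom of the Foxd3 panel is the library with 0 counts. The share of all genes with such a gap was not counted.

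Levels between genes are given in TPM, which is per length. In the 7 transgene-free ganglia Fabp7 had the highest median (851 TPM, rank 136 of 24411 genes), followed by Mbp (238), Sox10 (122), Erbb3 (72.7), Cdh19 (65.7), Foxd3 (32.7), S100b (12.95) and Gfap (0.32). Each gene exceeded the next in that order in 12 of 12 ganglia, apart from Erbb3 and Cdh19, which kept their order in 8 of 12. In tumors the order was another one: Mbp exceeded Fabp7 in 4 of 4 tumors, and by median TPM Fabp7 ranked 10958 of 24411 genes.

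Sox10, on the minus strand of chromosome 15 (79154908 to 79165240 on GRCm38), encodes the transcription factor on which neural crest cells depend to become glia. Its TPM was 128, 56.7, 187 and 93.6 in transgene-free wild-type ganglia and 150.0, 107 and 122 in transgene-free ganglia labelled het. Th-MYCN wild-type ganglia gave 38.5, 139 and 82.4, and those labelled het 92.0 and 115. Tumors gave 2.91, 1.34, 0.73 and 2.13. The groups of ganglia overlapped one another, and the lowest ganglion stood 13.2 times above the highest tumor. On the edgeR scale Sox10 had a log2 fold change of -5.65 ± 0.50 (SE, adjusted p = 1.33e-06) in tumors against transgene-free ganglia, and the log2 fold change against Th-MYCN wild-type ganglia was -5.19 ± 0.52 (adjusted p = 1.27e-05).

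Foxd3, on the plus strand of chromosome 4 (99656299 to 99658622), encodes a forkhead factor of early neural crest that is kept in glial precursors. TPM was 40.7, 13.6, 43.7 and 32.7 in transgene-free wild-type ganglia and 45.01, 28.7 and 31.02 in those labelled het. Th-MYCN ganglia gave 11.9, 30.8 and 15.8 with wild-type Runx1t1 and 56.0 and 34.4 under the het label. Tumors gave 0.94, 1.3, 0 and 0.86, the 0 being replicate 3, the tumor with liver RNA. The highest tumor thus lay 9.14 times under the lowest ganglion. The log2 fold change was -4.96 ± 0.71 (SE) against transgene-free ganglia (edgeR adjusted p = 3.99e-05) and -4.56 without that tumor.

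Erbb3, on the minus strand of chromosome 10 (128567523 to 128589652), encodes the neuregulin receptor of Schwann cell precursors. TPM was 70.8, 35.45, 111 and 63.45 in transgene-free wild-type ganglia, and 89.8, 72.7 and 74.2 in transgene-free ganglia labelled het. Th-MYCN ganglia gave 25.1, 102 and 60.5 with wild-type Runx1t1 and 87.4 and 56.5 under the het label. Tumors gave 2.38, 3.18, 12.8 and 1.67, so that 1 tumor stood apart from the other 3. That tumor is replicate 3, and there the liver genes Alb and Apoa1 stood at 2497 and 2417 TPM, and Egfr, Gjb1 and Aldh1l1, which hepatocytes also express, at 43.2, 34.2 and 49.9 TPM. Whether RNA of liver cells adds to Erbb3 in that library was not tested. The log2 fold change against transgene-free ganglia was -3.49 ± 0.58 (SE, edgeR adjusted p = 0.000138) with all tumors and -4.49 (adjusted p = 1.06e-05), or 22.5-fold lower, without that tumor.

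Other genes of the neuregulin pathway were read from a list of 9, of which 8 were in the table and tested. Against transgene-free ganglia 5 were lower in tumors, 1 was higher, and their median log2 fold change was -1.24, beside 30.9% of all genes called lower and 30.6% higher. Against Th-MYCN wild-type ganglia 4 were lower and none higher, and against those labelled het 4 were lower and 1 higher. All genes tested gave shares of 20.5% and 23.5% called lower there, and of 14% and 22% called higher. The co-receptor gene Erbb2 fell from a median of 12.3 TPM to 0.61 TPM, a log2 fold change of -3.94 ± 0.30 (SE, edgeR adjusted p = 5.54e-07). Nrg1, which encodes the main axonal ligand, fell from 36.4 to 1.46 TPM (-3.92 ± 0.55, edgeR adjusted p = 3.28e-05), and Nrg3 from 22.7 to 0.04 TPM (-3.84 ± 1.15, edgeR adjusted p = 0.0103). Nrg3 was unevenly spread over tumors, from 0 to 4.22 TPM. Nrg2, a further ligand gene, and Bace1, which encodes a protease that cleaves neuregulin, were the other genes called lower (log2 fold changes of -1.73 and -0.74). Erbb4, another neuregulin receptor gene, was the one called higher (edgeR adjusted p = 0.000235), at 0.8 to 4.38 TPM in tumors and at most 0.52 TPM in ganglia. Nrg2, Bace1 and Erbb4 were named after their values were seen. Without the ganglion with lymphocyte RNA and the tumor with liver RNA, 6 of the 8 were lower and 1 higher against transgene-free ganglia. That fit gave 3 lower and 1 higher against Th-MYCN wild-type ganglia, and 6 lower and 1 higher against those labelled het. Egfr changed sign against transgene-free ganglia, from 0.86 (edgeR adjusted p = 0.368) to -1.85 (edgeR adjusted p = 0.0057) without the tumor with liver RNA. Erbb3, its partner Erbb2 and 3 ligand genes were thus among the genes called lower.

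Fabp7, on the plus strand of chromosome 10 (57784881 to 57788450), encodes the brain lipid-binding protein used as a marker of satellite glia. TPM was 851, 277, 870.1 and 766 in transgene-free wild-type ganglia and 851, 557 and 852 in those labelled het. Th-MYCN ganglia gave 274, 846 and 774 with wild-type Runx1t1 and 718 and 468 under the het label. Tumors gave 3.67, 7.91, 1.86 and 3.16, so the lowest ganglion stood 34.7 times above the highest tumor. This was the widest gap of the 8 genes. Fabp7 had a log2 fold change of -6.93 ± 0.55 (SE, edgeR adjusted p = 6.67e-07) against transgene-free ganglia, or 122-fold, and -6.79 ± 0.56 (adjusted p = 3.24e-06) against Th-MYCN wild-type ganglia.

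S100b, on the plus strand of chromosome 10 (76253853 to 76261159), encodes a calcium-binding protein of Schwann cells and satellite glia, and overlaps Dip2a on the opposite strand. TPM was 12.95, 6.85, 22.8 and 15.1 in transgene-free wild-type ganglia and 15.4, 8.8 and 9.09 in those labelled het. Th-MYCN wild-type ganglia were widely spread at 1.6, 25.9 and 6.89, and those labelled het gave 7.73 and 6.61. Tumors gave 0.28, 0.33, 0.13 and 0.24, which rest on 3 to 10 counts. S100b varied more among ganglia than any other of the 7 called genes, 16.2-fold from lowest to highest. The log2 fold change was -5.19 ± 0.70 (SE, edgeR adjusted p = 2.5e-05) against transgene-free ganglia. Against Th-MYCN wild-type ganglia it was -5.06 ± 0.73 (adjusted p = 0.000219) and -3.66 (adjusted p = 0.00067) without Th-MYCN wild-type ganglion 3.

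Gfap, on the minus strand of chromosome 11 (102887336 to 102900912), encodes the intermediate filament of astrocytes that satellite glia and non-myelinating Schwann cells can also make. It was near the floor in every library, with 2 to 29 counts in ganglia and 1 to 7 in tumors. TPM ran from 0.06 to 1.22 in ganglia (median 0.415) and from 0.03 to 0.2 in tumors, so the groups overlapped. The log2 fold change against transgene-free ganglia was -2.08 ± 0.94 (SE, edgeR adjusted p = 0.0688), with a 95% interval from -4.10 to -0.06. Levels this close to the floor did not establish a difference at this depth. DESeq2 called it (adjusted p = 0.0359), and so did edgeR without tumor 1 (adjusted p = 0.0387) or without transgene-free ganglion 3 labelled het (adjusted p = 0.037). Against Th-MYCN ganglia labelled het, edgeR without tumor 1 also called it (log2 fold change -3.29, adjusted p = 0.0466). Other settings weakened it. The fold against transgene-free ganglia was -1.06 (adjusted p = 0.287) without transgene-free ganglion 1 labelled het and -0.41 with limma on log2(TPM + 1), and that against Th-MYCN ganglia labelled het was -0.82 (adjusted p = 0.728) without het ganglion 2.

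Cdh19, on the minus strand of chromosome 1 (110888326 to 110977584), encodes a cadherin of neural crest glia. TPM was 64.4, 32.5, 121 and 70.3 in transgene-free wild-type ganglia and 98.8, 65.7 and 55.7 in those labelled het. Th-MYCN ganglia gave 17.6, 86.9 and 37.1 with wild-type Runx1t1 and 97.5 and 47.4 under the het label. Tumors gave 0.74, 1.41, 0.09 and 0.72. The groups did not overlap, and the lowest tumor, replicate 3, had 4 counts. Cdh19 had a log2 fold change of -6.13 ± 0.70 (SE, edgeR adjusted p = 7.03e-06) against transgene-free ganglia and of -5.53 ± 0.71 (adjusted p = 9.18e-05) against Th-MYCN wild-type ganglia, which became -4.78 without Th-MYCN wild-type ganglion 3.

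Mbp, on the plus strand of chromosome 18 (82475146 to 82585637), encodes myelin basic protein. TPM was 218, 93.55, 387 and 186 in transgene-free wild-type ganglia and 289, 287 and 238 in those labelled het. Th-MYCN ganglia gave 63.9, 415 and 163 with wild-type Runx1t1 and 219 and 157 under the het label. Tumors gave 34.1, 21.1, 25.2 and 33.8, the highest tumor levels of the 8 genes, and did not overlap with ganglia. Per count the gap was narrow, with 54.8 to 86.8 CPM in tumors beside 90.1 CPM in the lowest ganglion. The log2 fold change in counts was -1.64 ± 0.35 (SE, edgeR adjusted p = 0.00108) against transgene-free ganglia and -1.47 ± 0.40 (adjusted p = 0.0117) against Th-MYCN wild-type ganglia. The latter became -0.77 (adjusted p = 0.131) without Th-MYCN wild-type ganglion 3, the library with the most Mbp. Against Th-MYCN ganglia labelled het it was -1.28 ± 0.44 (adjusted p = 0.0276). That call was lost without het ganglion 1 (-1.05, adjusted p = 0.191), and with a term for sex (-0.88, adjusted p = 0.157). It was also lost, with the fold about as large, without het ganglion 2 (-1.48, adjusted p = 0.0551), tumor 2 (-1.17, adjusted p = 0.0636) or tumor 3 (-1.21, adjusted p = 0.0575).

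**Figure D2:**
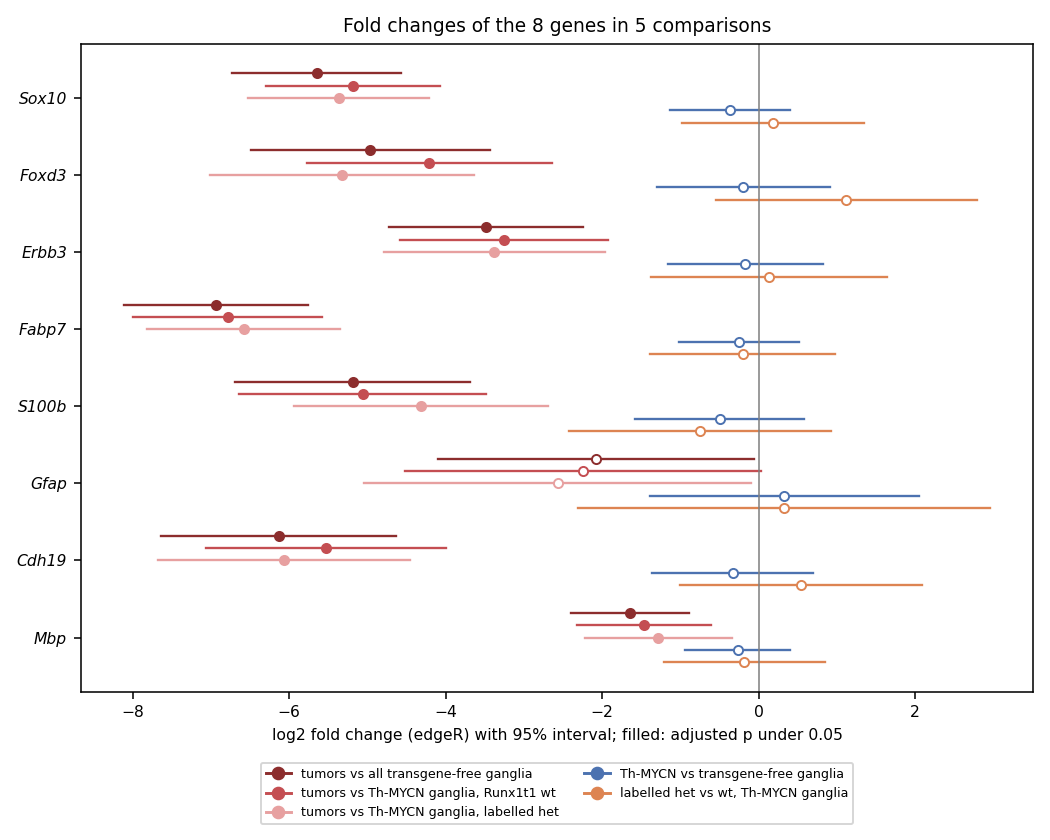
Points give the log2 fold change of each gene in 5 comparisons from edgeR, with 95% intervals as lines, and filled points mark an adjusted p under 0.05. The tumor comparisons lie between -6.93 and -1.28, Mbp being nearest to 0 among the called genes, whereas both ganglion comparisons have open points for all 8 genes.

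The counts and the TPM of Mbp gave folds of unequal size. From ganglia to tumors the ratio of medians was 0.135 in TPM but 0.363 in CPM, and limma on log2(TPM + 1) gave a log2 difference of -2.99 against transgene-free ganglia where the counts gave -1.64. RSEM divides a gene's count by an effective length weighted over its transcripts, so that count over TPM, scaled per library, gives that length. Relative to the median of the ganglia, the effective length of Mbp was 1.95, 1.95, 1.96 and 1.95 in the 4 tumors. In ganglia it ran from 0.877 to 1.28, and the highest were Th-MYCN wild-type ganglion 1 at 1.28, the library rich in proliferation genes, and transgene-free wild-type ganglion 2 at 1.16, the library with lymphocyte RNA. Tumors thus averaged 1.95 ± 0.0053 (n = 4, SD) and the ganglia 1.01 ± 0.113 (n = 12, SD), a difference of 0.94 that exceeded the spread in either group. This measure was chosen after the values were seen and is given as a description, with no test. Leaving out each library in turn gave differences from 0.914 to 0.978.

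The other 7 genes kept their effective length, within 0.868 to 1.04 of the ganglion median, with the widest range in Gfap, which has few counts. Of 6383 genes with at least 200 counts and a TPM of 1 or more in every library, 62 (0.971%) had all tumors above all ganglia in this measure, and 95% of genes had a tumor mean between 0.976 and 1.04. Mbp had the highest tumor mean of them. GENCODE vM21 gives Mbp 14 coding transcripts in 2 clusters of starts. In one, 3 transcripts begin at 82475146 to 82475162 and have spliced lengths of 1685 to 4797 bases. In the other, 11 begin at 82554470 to 82554580, with lengths of 354 to 2070 bases (median 1922). Transcripts of the upstream starts are known as the Golli forms, which are made outside myelinating cells, among them neurons and lymphocytes, and those of the downstream starts are the classic myelin forms. The tumors' Mbp reads were therefore assigned to longer transcripts than the ganglia's, but the tables sum over transcripts, and the share of each form was not analysed here.

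**Figure D3:**
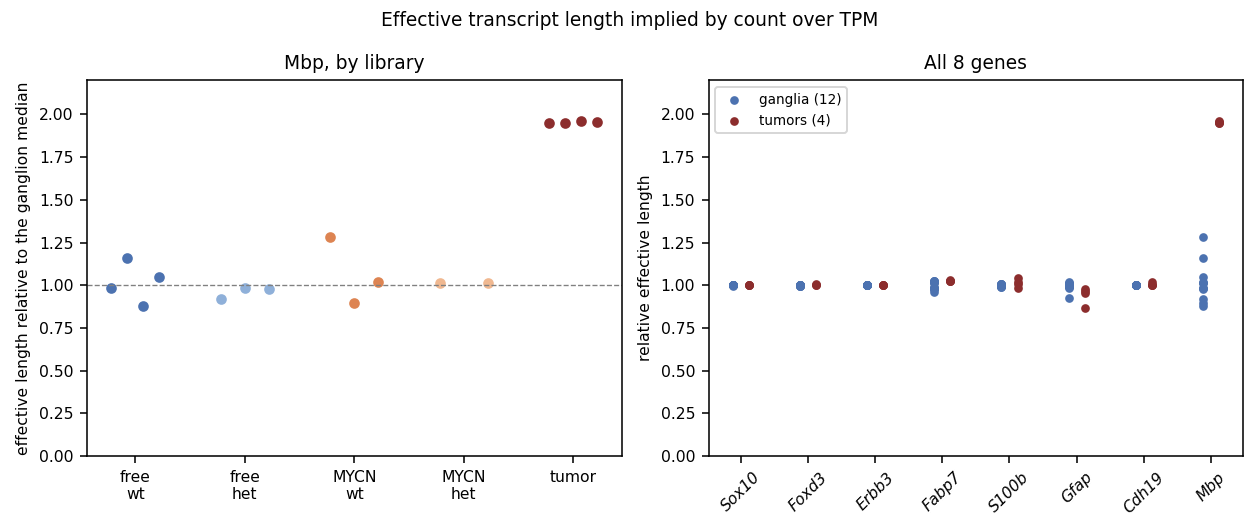
The left panel plots the effective length of Mbp in each library relative to the median of the 12 ganglia (dashed line at 1), and the right panel plots the same for all 8 genes. The 4 Mbp tumor points lie at 1.95 to 1.96, and points of the other genes lie near 1.

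The proportions of these RNAs to one another were read as TPM over Sox10 TPM. Among ganglia Erbb3 over Sox10 stayed between 0.493 and 0.95 and Mbp over Sox10 between 1.37 and 2.98. In tumors Mbp over Sox10 was 11.7 to 34.5, without overlap with ganglia, and the ratio of medians was 8.06 in TPM and 15.7 in CPM. Fabp7 over Sox10 had a median of 6.37 in ganglia and 2.02 in tumors, Cdh19 over Sox10 0.593 and 0.296, Foxd3 over Sox10 0.284 and 0.363, and S100b over Sox10 0.0927 and 0.145. These 4 ratios overlapped between tumors and ganglia. Erbb3 over Sox10 reached 17.5 in the tumor with liver RNA and 0.784 to 2.37 in the other tumors. Gfap over Sox10, which rests on few counts, was 0.000558 to 0.0218 in ganglia and 0.0299 to 0.0687 in tumors. Among genes with more than a few counts, only Mbp had ratios to Sox10 that did not overlap between tumors and ganglia.

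**Figure D4:**
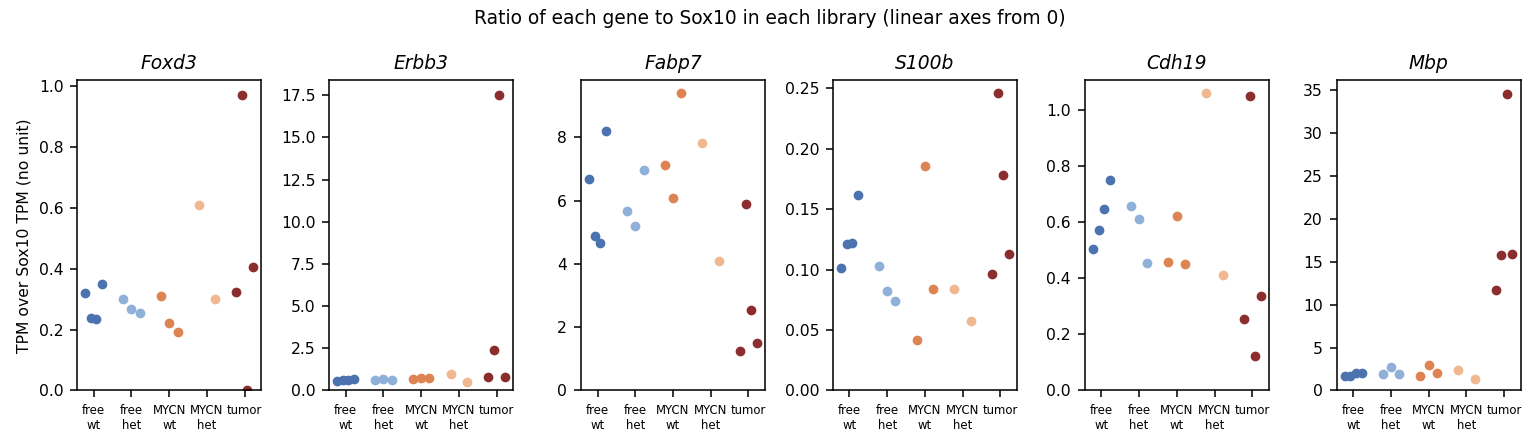
Points give the TPM of 6 genes divided by the TPM of Sox10 in each library, on linear axes from 0, and Gfap is left out for its few counts. Mbp ratios of the tumors (11.7 to 34.5) lie above all ganglia (1.37 to 2.98), and 1 tumor stands apart for Erbb3 at 17.5.

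Among ganglia, no difference by genotype was called for any of the 8 genes. With wild-type Runx1t1, Th-MYCN ganglia set against transgene-free ones gave fold changes from -0.71 (Foxd3) to 0.06 (Gfap) on the log2 scale, with the lowest edgeR adjusted p at 0.589, where 0.936% of all genes were called in either direction. S100b moved most with 1 library, from -0.32 to -1.73 (adjusted p = 0.0803) without Th-MYCN wild-type ganglion 3. The same comparison among ganglia labelled het gave -0.67 (S100b) to 0.60 (Gfap), with 0% of all genes called (242 genes had an unadjusted edgeR p under 0.05, and DESeq2 called 14). Over all Th-MYCN against all transgene-free ganglia, the range was -0.50 (S100b) to 0.33 (Gfap), 7 of 8 values were below 0, and 0.042% of all genes were called. For Sox10 the difference was -0.37 with a 95% interval from -1.14 to 0.39. A fall of Sox10 RNA by more than that lower bound lies outside the interval, while smaller changes could not be told from 0. In that comparison the interval ran from -1.58 to 0.58 for S100b and from -1.40 to 2.05 for Gfap, so larger changes of these genes also lie within the error.

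The Runx1t1 label gave no called member either. In Th-MYCN ganglia, het against wild-type ran from -0.75 (S100b) to 1.12 (Foxd3, 95% interval -0.55 to 2.79), with the lowest edgeR adjusted p at 0.57 and 0.012% of all genes called. How many of all genes lacked overlap between these groups of 2 and 3 libraries was not counted. The gap given next for 1 of the 8 genes is therefore only a description, and few libraries can separate without a difference. Foxd3 did not overlap there, at 34.4 and 56.0 TPM under the het label and 11.9 to 30.8 TPM in wild-type ganglia. In transgene-free ganglia it ran from -0.40 (S100b) to 0.26 (Mbp), with 0% of all genes called (687 at an unadjusted edgeR p under 0.05, and 2 by DESeq2). The interaction of transgene and Runx1t1 label ran from -0.45 (Mbp) to 1.04 (Foxd3), with the lowest edgeR adjusted p at 0.889 and 0% of all genes called (937 at an unadjusted p under 0.05, and 30 by DESeq2). At an unadjusted p under 0.05 none of the 8 genes was found in any of the 6 ganglion comparisons, in which the lowest unadjusted p of edgeR was 0.172 (Foxd3). DESeq2 and limma called none of the 8 there as well.

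Among ganglia, a pair of libraries was low for most of the genes. Th-MYCN wild-type ganglion 1 had the lowest TPM of the 12 ganglia for 7 of the 8 genes, all but Gfap. Transgene-free wild-type ganglion 2 was among the lowest pair for 6 genes. In the first of these the sympathetic neuron markers summed to 7607 TPM and fibroblast markers to 888 TPM, with Mki67 at 347 TPM. In the second the sympathetic neuron markers summed to 5635 TPM, the lowest of the ganglia, and lymphocyte, myeloid and endothelial markers were the highest of the ganglia at 509.8, 441 and 534 TPM. The part these other cell markers play in the low glial values was not tested.

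Members rose and fell together over the 12 ganglia. Leaving Gfap aside, the 21 pairs had a Pearson r of log2(CPM + 1) from 0.60 to 0.96 (median 0.85), highest for Mbp with Erbb3. Without the 2 lowest ganglia the range was 0.05 to 0.91 (median 0.65) over 10 libraries. Pairs with Gfap ran from -0.28 to 0.09. These values describe libraries that share normalization and mixed cell content, and they carry no test.

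The genes whose pattern was most like the members' mean over the 12 ganglia, among 11942 genes with a mean of at least 5 TPM there, were Cyp2j6 (r = 0.98), Paqr6 (0.976), Slc35f1 (0.974), Prex2 (0.971), Acot1 (0.969), Dmd (0.967), 5930403L14Rik (0.965) and Sema3e (0.963). Over all 16 libraries they were Paqr6 (0.993), Gjc3 (0.992), Gulp1, Kcna2, Lgi4, Matn4, Fam198b and Arhgef10 (0.987 to 0.988). The r over 16 libraries includes the gap between ganglia and tumors, and the r of a typical gene is not given. Gjc3 encodes a connexin of myelinating glia, and Lgi4 a secreted protein of Schwann cells. Paqr6 was in both sets.

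Genes known for roles beside the members were read from lists chosen by function, with earlier results of these data known. Of 16 satellite glia genes, 13 were lower in tumors than in transgene-free ganglia and none higher, with a median log2 fold change of -5.03, beside 30.9% of all genes called lower. Ngfr, the low-affinity neurotrophin receptor, which sympathetic neurons also express, fell from a median of 1331 TPM to 1.39 TPM (log2 fold change -9.14 ± 0.60 SE, edgeR adjusted p = 2.35e-07). Gpr37l1, a glial receptor, fell from 41.3 to 0.175 TPM (-7.58 ± 0.69), and Entpd2, the ectonucleotidase of satellite glia, from 74.2 to 0.96 TPM (-5.92 ± 0.53). Against Th-MYCN wild-type ganglia 13 of the 16 were lower as well, and against those labelled het also 13. Of all genes 20.5% and 23.5% were called lower there.

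Of 18 myelin protein genes, 13 were lower and 1 higher than in transgene-free ganglia, with a median of -4.39, and 13 and 12 were lower and none higher than in Th-MYCN ganglia with wild-type Runx1t1 and labelled het. Of all genes 30.9%, 20.5% and 23.5% were called lower in these 3 comparisons, and 30.6%, 14% and 22% higher. Gjc3 fell from 35.9 to 0.065 TPM (log2 fold change -8.60 ± 0.78 SE, edgeR adjusted p = 1.45e-06), and Mal, a myelin proteolipid, from 96.4 to 0.275 TPM (-7.29 ± 1.00). The gene called higher was Gjb1, at 0.15 to 34.2 TPM in tumors with a median of 0.32. Its high value is that of the tumor with liver RNA, and without that library Gjb1 did not pass the filter on low counts. Levels left in tumors differed widely across the list. Gjc3 stood at 0.02 to 0.13 TPM and Mal at 0.03 to 1.37 TPM there, beside Mbp at 21.1 to 34.1 TPM. Other genes of the list, named after their values were seen, also kept sizeable levels in tumors, with Cadm4 at 66.03 to 91.1 TPM, Pmp22 at 17.8 to 69.7 TPM and Cnp at 10.1 to 17.1 TPM. Pmp22 and Cnp were called lower (log2 fold changes of -3.04 and -3.30), and Cadm4, a glial adhesion molecule, was not (-0.31, edgeR adjusted p = 0.347).

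Of 14 transcription regulators of glia, 12 were tested, and 9 were lower and 2 higher in tumors than in transgene-free ganglia, with a median of -1.21, beside 30.9% of all genes called lower and 30.6% higher. Against Th-MYCN wild-type ganglia 5 were lower and 1 higher, and against those labelled het 6 were lower and 2 higher. Of all genes, 20.5% and 23.5% were called lower there, and 14% and 22% higher. Sox2, kept in glial precursors, stood at 6.02 to 12.9 TPM in transgene-free ganglia and at 0 to 0.09 TPM in tumors, on at most 4 counts. Sox8, which shares functions with Sox10, fell from 7.23 to 0.845 TPM (log2 fold change -2.95 ± 0.65 SE, edgeR adjusted p = 0.00135), and Sox6 from 8.01 to 1.07 TPM (-2.43 ± 0.47). Pou3f2, which Schwann cells and neural progenitors both use, rose from 7.21 to 31.1 TPM (2.64 ± 0.26, edgeR adjusted p = 2.47e-06). Jun was called higher in counts (0.57 ± 0.12, edgeR adjusted p = 0.00105) while its median TPM was 116 in both groups, and limma on log2(TPM + 1) gave 0.15 (adjusted p = 0.362). In this comparison the median log2 fold change of all genes was -0.06 with edgeR on counts. With limma it was -0.35 on log2(TPM + 1) and -0.47 on log2(TPM + 0.1). These settings differ in scale, model and pseudocount at once.

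Among 20 genes of the members' families (S100 proteins, fatty acid-binding proteins, intermediate filaments, cadherins and FOXD factors), 17 were lower in tumors than in transgene-free ganglia and none higher, with a median of -2.88. Without the ganglion with lymphocyte RNA and the tumor with liver RNA 15 were lower and 1 higher. Against Th-MYCN ganglia 13 (wild-type Runx1t1) and 14 (labelled het) were lower, and the shares of all genes called lower were again 30.9%, 20.5% and 23.5%. The largest were Prph, the peripheral neuron filament, from 3613 to 4.19 TPM (log2 fold change -8.90 ± 0.72 SE, edgeR adjusted p = 7.71e-07), and Foxd2 and Foxd1, which had at most 1 count in any tumor and 2.07 to 11.1 and 0.92 to 4.58 TPM in transgene-free ganglia. No fold is given for these last 2.

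Markers of other cell types were measured beside these values, and their counts are read against the shares of all genes called with all libraries. Against transgene-free ganglia these shares were 30.9% lower and 30.6% higher. Against Th-MYCN ganglia they were 20.5% lower and 14% higher with wild-type Runx1t1, and 23.5% lower and 22% higher under the het label. The 5 markers of central oligodendrocytes summed to at most 2.48 TPM in any library, most of it Mog (up to 2.25 TPM), while Mobp, Olig1 and Olig2 were at most 0.79 TPM. The 5 astrocyte markers summed to 4.33 to 14.2 TPM in ganglia and 3.86 to 57.9 TPM in tumors, the highest being tumor 3, with Gjb6 at most 0.1 TPM. Of 4 tested, 1 was called lower and 1 higher in each tumor comparison (median log2 fold change 0.18 against transgene-free ganglia). Without the ganglion with lymphocyte RNA and the tumor with liver RNA, 3 were lower and 1 higher against transgene-free ganglia (median -1.99). That fit gave 2 lower and 1 higher against Th-MYCN wild-type ganglia, and 1 lower and 1 higher against those labelled het. Of 6 melanocyte markers 4 were tested, and 4 of 4 were called lower than in transgene-free ganglia (median log2 fold change -6.22) and than in Th-MYCN ganglia labelled het, and 3 of 4 than in Th-MYCN wild-type ganglia. The 6 summed to 3.79 to 20.6 TPM in ganglia and 0.99 to 4.94 TPM in tumors, and among them Mitf reached 11.15 TPM and Tyrp1 9.81 TPM in ganglia, Tyrp1 was at 0 in all tumors, and Tyr was at 0 in 15 of 16 libraries. Mlana went the other way, at up to 3.2 TPM in tumors and 0.83 TPM in ganglia, and was at 0 in 14 of 16 libraries. Their part in the glial values was not tested. Fibroblast markers fell in tumors too, 6 of 6 called, from a summed median of 3712 TPM in transgene-free ganglia to 208 TPM, and 10 of 16 sympathetic neuron markers were called lower and 3 higher. Of the proliferation genes 8 of 8 were called higher against transgene-free ganglia and against Th-MYCN ganglia labelled het, and 1 of 8 against Th-MYCN wild-type ganglia, or 4 of 8 without the ganglion with lymphocyte RNA and the tumor with liver RNA. Endothelial markers were lower in 4 of 6 cases, in 2 of 6 without those libraries, and in 1 of 6 against either group of Th-MYCN ganglia. Myeloid markers were higher in 3 of 6 cases, and in 5 of 6 without those libraries. Against Th-MYCN ganglia with wild-type Runx1t1 and labelled het edgeR called 0 of 6 higher with all libraries, and 2 of 6 and 3 of 6 without those libraries. Adrenal cortex markers were lower in 4 of 5 cases against transgene-free ganglia (median log2 fold change -4.90) and against Th-MYCN ganglia labelled het (-4.46). Against Th-MYCN wild-type ganglia 1 of 5 was lower (-1.81), or 3 of 5 without those libraries. Without those libraries the medians became -8.35, -8.37 and -5.23 in that order. Fibroblast markers, 6 of 6 lower also against both groups of Th-MYCN ganglia, thus fell along with the glial genes, and the part of tissue makeup in these values was not tested.

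**Figure D5:**
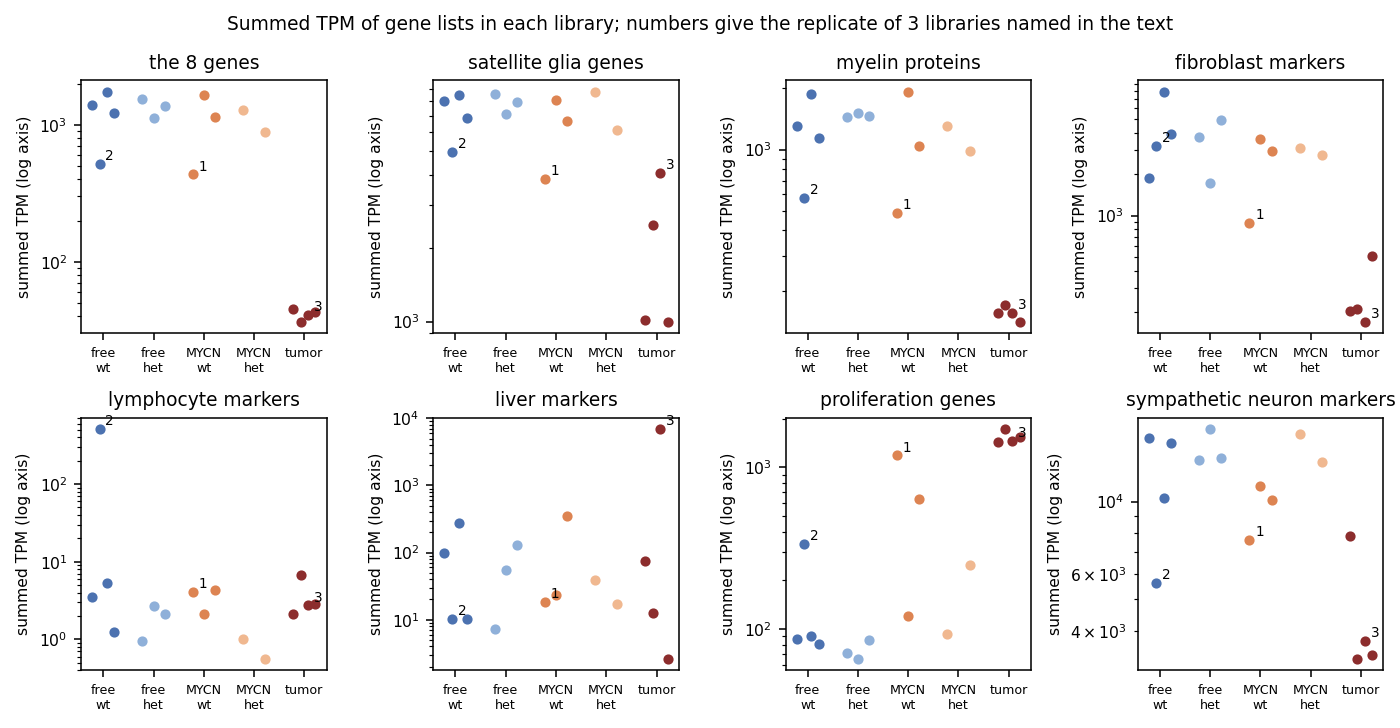
Summed TPM of 8 gene lists in each library on log axes, with the replicate number beside the 3 libraries named in the text. The 8 glial genes sum to 434 TPM or more in every ganglion and to at most 45.2 TPM in tumors, lymphocyte markers stand out in transgene-free wild-type ganglion 2 and liver markers in tumor 3.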

How the data were processed

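RNA of 12 celiac ganglia and 4 tumors was sequenced as SMARTer Stranded Total RNA-seq libraries, although the labels say polyA RNA. The authors aligned paired-end reads to mm10 with STAR, used SAMtools and ran RSEM. They deposited RSEM expected counts, which are not normalized, and TPM. The annotation and the use of strand in counting are not given in the sources used here, so genes that overlap are uncertain. Column headers name wild-type Runx1t1 as Hom, read here as homozygous wild type.

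Expected counts were rounded, filtered by group (filterByExpr, 16665 genes kept), normalized by TMM and fitted over all 5 groups with the quasi-likelihood test of edgeR 4.0.16 in R 4.3.3. P-values were adjusted by Benjamini-Hochberg over all genes tested in each of 9 comparisons, with a threshold of 0.05. Each SE is the size of the log2 fold change over the square root of F. CPM are TMM-scaled. The script was tested on simulated data. Effective length is count over TPM, scaled per library by the median of genes with at least 200 counts and 1 TPM everywhere. Levels were summarised in Python 3.11.15. No table column was left unmapped, and no 2 libraries were identical.

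The 8 genes, the lists and the tests were chosen with earlier results of these data known. From each of 5 lists of related genes at most 3 lower and 2 higher genes were named, those with the largest fold change in tumors against transgene-free ganglia among called genes with a mean of at least 1 TPM. One gene that this rule names is not reported here. From markers of other cells, those at or near 0 were named. Alb, Apoa1, Egfr, Aldh1l1, Th and Mki67 were named after their values were seen. Alternatives were other normalizations, DESeq2 1.42.0, limma 3.58.1 on TPM, other filters, terms for depth, sex and replicate number, a fit without Rn45s, and leaving out libraries. Precision is limited by depth (10692299 to 38618757 counts per library) and by 2 to 4 libraries a group. Gene positions are from GENCODE vM21 (GRCm38).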

Additional observations from a re-analysis of the deposited data

Results flagged for a closer look

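Of 50 sets of values checked in groups of 4 tumors or 4 transgene-free wild-type ganglia, 11 had 1 library farther from the others than the test of Dixon allows at the 95% level, and chance alone gives about 1 in 20. Among the 8 glial genes only Erbb3 was so marked, at 12.8 TPM in tumor 3 against at most 3.18 TPM in the other tumors. The same tumor stood apart for liver markers (a summed 6910 TPM against at most 75.1) and for astrocyte markers (57.9 TPM against at most 4.45, most of it Aldh1l1). Tumor 1 stood apart for sympathetic neuron markers (7830 TPM against at most 3720), tumor 2 for endothelial markers (79.1 against 35.9) and lymphocyte markers (6.67 against 2.83), and tumor 4 for fibroblast markers (506 against 211). Transgene-free wild-type ganglion 2 stood apart for lymphocyte markers (510 against 5.28), myeloid markers (441 against 88.4) and proliferation genes (335 against 91.1), and ganglion 3 of that group for adrenal cortex markers (81.7 against 9.27). The cause of these differences was not tested.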

How the results depend on the processing

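The 24 fold changes of the 8 genes in tumors kept their direction in 734 of 734 values under alternatives, and 722 also kept their side of the threshold; the exceptions are the Mbp and Gfap calls given above, and Mbp with a minimum log2 fold change of 1 (glmTreat, adjusted p = 0.266 against wild-type and 0.31 against het Th-MYCN ganglia). The 48 fold changes among ganglia gave 1503 values, none past the threshold and 116 of opposite sign, with the lowest adjusted p at 0.0803 (S100b, wild-type ganglia, without Th-MYCN ganglion 3, log2 fold change -1.73). With limma on log2(TPM + 1), which understates changes of low genes, S100b gave -2.72, -2.71 and -3.38 against Th-MYCN wild-type, Th-MYCN het and transgene-free ganglia. Counts over all genes moved more. With glmTreat the genes called lower in tumors were 1359 of 3415 against Th-MYCN wild-type ganglia, 1948 of 3914 against those labelled het, and 2665 of 5145 against transgene-free ganglia. By transgene among wild-type Runx1t1 ganglia, 156 genes became 238 with upper-quartile scaling, 1276 with DESeq2, 8 and 0 with limma (pseudocounts 1 and 0.1), 0 with glmTreat, only the groups compared, or either depth class, 308 with a depth term, 50 with a sex term, 236 without Rn45s, 476 without the libraries with lymphocyte and liver RNA, and 0 to 1811 when leaving out 1 library. For ganglia labelled het, 0 became 14 (DESeq2), 1 (limma, 0.1) and 9 (only the groups compared). Over all ganglia by transgene, 7 became 18 (upper quartile), 13 (DESeq2 size factors), 14 (total counts), 19 (no filter), 362 (DESeq2), 0 and 11 (limma), 0 (only the groups compared, depth term, libraries under 20000000 counts), 17 (without Rn45s), 51 (without both libraries) and 0 to 720 when leaving out 1 library. By Runx1t1 label in Th-MYCN ganglia, 2 became 1 (upper quartile, total counts, no filter, without Rn45s), 253 (DESeq2), 23 and 7 (limma), 0 (glmTreat, only the groups compared, depth term, sex term, libraries under 20000000 counts, without both libraries) and 0 to 320 when leaving out 1 library. In transgene-free ganglia 0 became 2 with DESeq2, and for the interaction 0 became 30 with DESeq2 and 0 to 1 when leaving out 1 library. Among fits without 1 library, the highest counts came without Th-MYCN wild-type ganglion 3 (1811, 720 and 320), and the next highest, for wild-type and for all ganglia by transgene, without transgene-free wild-type ganglion 2 (675 and 192); the cause was not tested.

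Of 25 same-numbered pairs, 6 had deviations correlated over 0.1 (range -0.492 to 0.331), and 4 of these 6 were transgene-free wild-type ganglia with tumors, where every number did (0.211, 0.331, 0.155 and 0.123). In transgene-free ganglia labelled het the correlations with tumors were -0.0634, -0.0161 and -0.105, and in no other pair of groups did every number pass. Pairs of unlike number were not set beside these. Whether the numbers mark a pairing or a batch can therefore not be told from these values. With the replicate block, 7 of 8 genes were called lower in all 3 tumor comparisons. With the replicate block, called genes were 0 for Th-MYCN against transgene-free wild-type ganglia, 0 over all ganglia by transgene, and 1 by Runx1t1 label in Th-MYCN ganglia. Among libraries over 20000000 counts, tumors could not be compared with Th-MYCN ganglia labelled het, which had none there, and under it with no ganglia, since all tumors were over it. Depth limits Gfap and the tumor values of S100b, which rest on at most 10 counts.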
